A study of Homo sapiens with 12 samples.

Results

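PLK2, PLK3, GADD45A, GADD45B, GADD45G, MDM2, SESN1, BTG2 and TP53INP1 are 9 stress-response genes most of which are known as targets of the tumour suppressor p53. They were selected by name, and PLK2 and GADD45A were also chosen by their responses, the CPM changes between groups measured here. The genes were found by their current symbols among the 28395 gene identifiers of an RNA sequencing experiment on BEAS-2B cells. The values of PLK2 and GADD45A are therefore given below as a description and carry no test. Of the 9 genes, 8 passed a filter on low counts that 13469 genes passed, and 6 of those 8 (PLK3, GADD45B, MDM2, SESN1, BTG2 and TP53INP1) were tested. GADD45G did not pass the filter.

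The cells formed 4 groups of 3 libraries: TGF-β1 followed by dexamethasone, TGF-β1 alone, dexamethasone alone, and untreated control. TGF-β1, a growth factor that signals through SMAD proteins and stress kinases, was given at 40 pM for 24 h. Dexamethasone, a glucocorticoid drug that acts through its nuclear receptor, was given at 30 nM for a further 4 h. All groups, control included, had been kept without serum or steroid for 24 h before treatment. Each group is labelled as biological triplicates, and the labels say no more on how they were cultured, so p-values measure the spread between these libraries. BEAS-2B is a human bronchial epithelial line immortalised with viral genes, among them a large T antigen that binds p53, which limits the line as a model of p53 responses. The title of the study names insensitivity to glucocorticoids after TGF-β1 as its question, so the effect of dexamethasone was compared with and without TGF-β1.

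p53 is a transcription factor that accumulates after DNA damage and other stresses and switches on genes that halt the cell cycle, repair DNA or kill the cell. GADD45 proteins are small proteins without enzyme activity that bind stress kinases and cell cycle regulators, and they are induced by many stresses, with or without p53. Polo-like kinases control the centrosome and cell division, and PLK2 and PLK3 are members of that family whose transcripts respond quickly to growth factors and stress.

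Replicate 3 was the deepest library of its group, with 17968961 to 19727235 counts over the 4 groups. The other 8 libraries had 5861591 to 7008203 counts. One growth protocol in the labels names A549, an alveolar cancer line, whereas the other labels name BEAS-2B. Keratins of bronchial epithelium were abundant in all 12 libraries (KRT5 387 to 1370 CPM, KRT8 470 to 921 CPM, KRT18 141 to 377 CPM, KRT19 49.9 to 296 CPM), CDH1 had 58.6 to 126 CPM, EPCAM was low (4.7 to 10.9 CPM), and the alveolar genes SFTPC, SFTPB, NKX2-1 and NAPSA were each at most 0.892 CPM. CPM are counts as a share of the library total after TMM scaling, which makes levels comparable between libraries. The summed level of the 6 bronchial markers ran over 1729 to 2572 CPM in TGF-β1 with dexamethasone, 1155 to 1704 in TGF-β1, 2087 to 2683 in dexamethasone and 1681 to 1858 in control. Within that sum, KRT18 averaged 161 ± 14.8 CPM with both treatments, 148.5 ± 7.55 CPM with TGF-β1, 348 ± 18.7 CPM with dexamethasone and 359 ± 21.5 CPM in control (SD, n = 3 each). KRT19 averaged 63.6 ± 14 CPM with both treatments, 60.4 ± 2.75 CPM with TGF-β1, 253.9 ± 40.3 CPM with dexamethasone and 186.3 ± 16.2 CPM in control, so both lay lower in the libraries with TGF-β1. CDH1 averaged 79.5 ± 1.44 CPM with both treatments, 63.6 ± 4.41 CPM with TGF-β1, 124.8 ± 1.7 CPM with dexamethasone and 99.9 ± 17.5 CPM in control. In the same order EPCAM averaged 6.42 ± 1.97, 7.84 ± 1.46, 9.77 ± 1.1 and 9.39 ± 0.49 CPM. KRT5 averaged 967 ± 354, 602 ± 270, 849 ± 222 and 502.5 ± 140 CPM, and KRT8 815 ± 117, 504 ± 29.8, 719 ± 127 and 583 ± 28.8 CPM. Mean KRT5 was thus higher with TGF-β1, with or without dexamethasone, and mean KRT8 was higher with TGF-β1 only where dexamethasone was present. The 3 fibroblast markers summed to at most 1.75 CPM in any library. The 3 leukocyte markers summed to 10.3 to 19.5 CPM, of which PTPRC and CD3E gave at most 0.175 CPM each and CD68 the rest. The part of these markers in the results was not tested, and in bulk RNA fewer cells of a type and less RNA per cell cannot be told apart.

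Sequence upstream of 7 of the 9 genes was taken from RefSeq (GRCh38.p14), and is shown for 5 of them so that the results below can be read beside it. TP53INP1 was left out of the search, and GADD45A had no window in the sequences used. Each window is the 250 bases before the annotated start, 5′ to 3′ on the strand of the gene, and capitals mark matches to any of 8 motifs searched on both strands. The 12 windows of the 7 genes include several starts for SESN1 and MDM2.

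The PLK2 window (chr5:58460087-58460336, minus strand) is shown first.
PLK2: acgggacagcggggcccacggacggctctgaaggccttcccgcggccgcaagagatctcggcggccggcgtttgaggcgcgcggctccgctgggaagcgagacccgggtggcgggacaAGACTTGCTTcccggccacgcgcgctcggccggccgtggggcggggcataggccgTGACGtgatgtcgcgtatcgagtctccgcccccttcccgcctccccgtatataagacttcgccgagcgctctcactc
Its capitals are a p53 half-site, AGACTTGCTT, that starts 132 bases before the gene, and the cyclic AMP response half-site TGACG, 77 bases before it.

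The PLK3 window (chr1:44800127-44800376, plus strand) held no match.
PLK3: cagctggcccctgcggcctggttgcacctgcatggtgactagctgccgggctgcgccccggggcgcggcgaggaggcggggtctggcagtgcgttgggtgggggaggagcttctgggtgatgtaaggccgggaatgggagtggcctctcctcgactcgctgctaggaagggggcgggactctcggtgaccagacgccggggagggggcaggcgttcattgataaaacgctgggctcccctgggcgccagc

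The GADD45B window (chr19:2475877-2476126, plus strand) held an E-box (CACGTG) 168 bases before the start, a CCAAT box (CCAAT) at 82 and another at 45 bases, and a TATA box (TATAAA) at 31 bases.
GADD45B: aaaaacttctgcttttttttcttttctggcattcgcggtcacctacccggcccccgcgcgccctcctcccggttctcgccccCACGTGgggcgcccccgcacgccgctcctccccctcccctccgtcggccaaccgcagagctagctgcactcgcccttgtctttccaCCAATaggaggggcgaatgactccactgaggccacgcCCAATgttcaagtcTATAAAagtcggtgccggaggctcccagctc

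One of the SESN1 windows (chr6:109008989-109009238, minus strand) held a CCAAT box 75 bases and a p53 half-site, GGACAAGTCT, 49 bases before its start. The SESN1 windows not shown held no match to the p53 half-site.
SESN1: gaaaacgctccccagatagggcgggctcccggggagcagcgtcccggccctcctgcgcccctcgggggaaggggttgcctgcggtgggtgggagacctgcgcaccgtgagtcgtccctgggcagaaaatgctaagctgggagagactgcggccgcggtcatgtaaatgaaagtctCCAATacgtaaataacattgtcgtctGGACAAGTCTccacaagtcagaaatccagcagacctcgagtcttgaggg

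The BTG2 window (chr1:203305269-203305518, plus strand) held the half-site TGACG 210 bases and a CCAAT box 76 bases before the start.
BTG2: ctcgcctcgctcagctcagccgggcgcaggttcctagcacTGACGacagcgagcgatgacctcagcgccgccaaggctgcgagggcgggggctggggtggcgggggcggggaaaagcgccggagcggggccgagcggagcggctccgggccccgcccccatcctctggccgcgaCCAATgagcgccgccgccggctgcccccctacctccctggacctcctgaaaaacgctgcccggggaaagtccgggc

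The p53 half-site was found in 5.59% of all 34788 RefSeq windows of this length, TGACG in 21.16%, CACGTG in 6.31%, CCAAT in 32.02% and TATAAA in 10.77%. No window of the 7 genes matched the glucocorticoid response element (GNACA and TGTNC with 3 bases between, 0.33% of all windows) or the SMAD palindrome (GTCTAGAC, 0.18%). The AP-1 site (TGANTCA, 6.59% of all windows) was matched as TGACTCA in overlapping windows of MDM2 alone. These matches describe letters in a window and are not evidence of binding. Only full matches to a pattern were counted, so a window without one may still hold a related site.

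**Figure D1:**
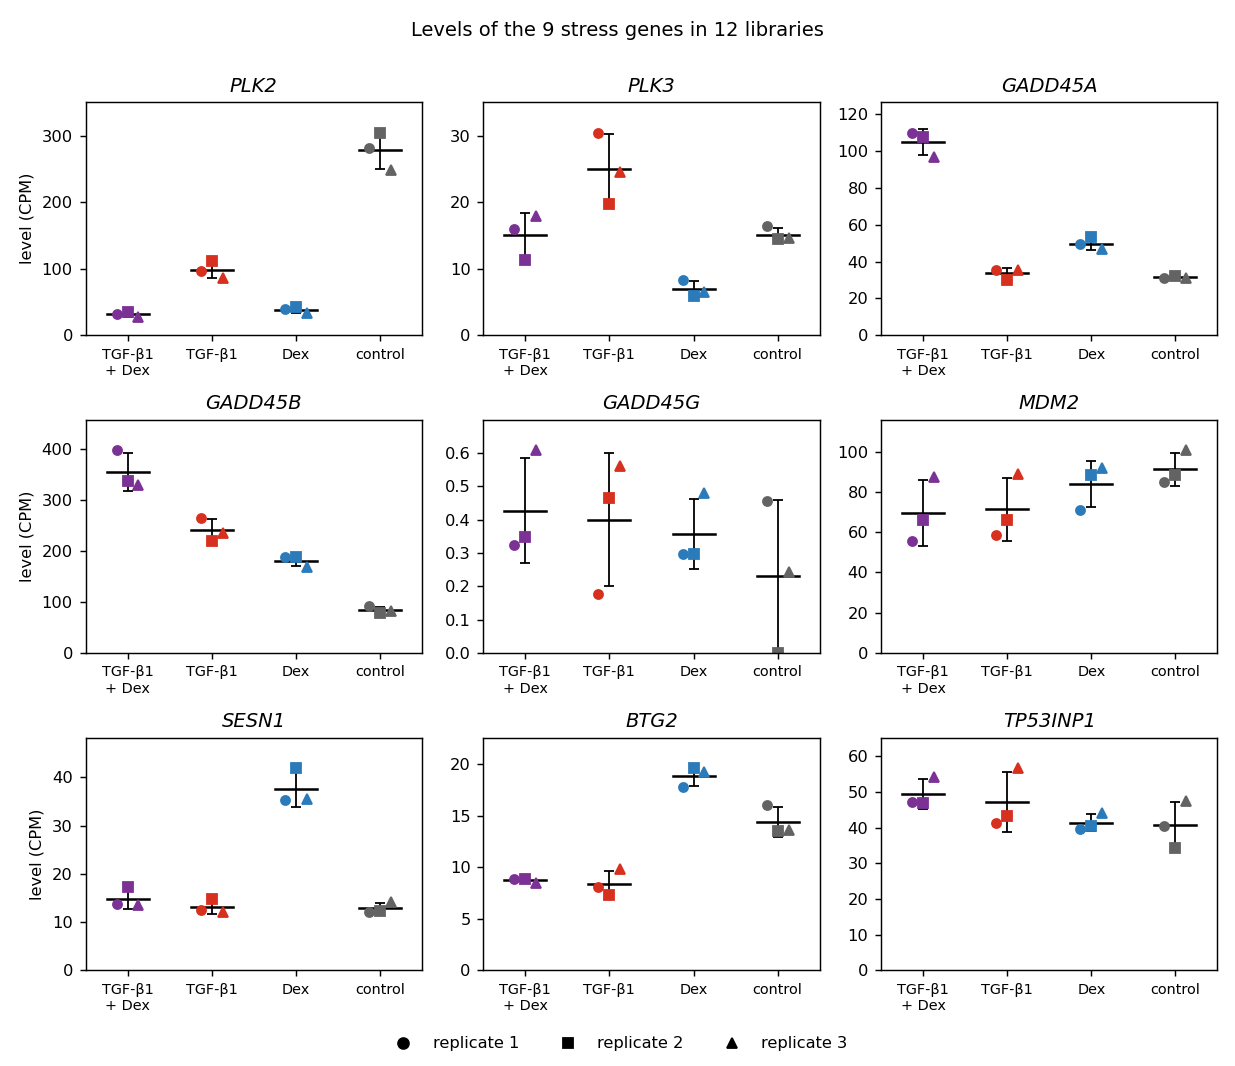
Level in CPM (vertical axis, from 0, own scale per gene) of the 9 genes in the 12 libraries, with points for libraries, shapes for replicate numbers, lines for group means and bars for SD (n = 3). PLK2 is lowest in the libraries with dexamethasone and highest in control, GADD45A is highest in the libraries with both treatments, and SESN1 is highest in those with dexamethasone alone.

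PLK2 (chr5:58453982-58460086, Entrez 10769) encodes a polo-like kinase with a role in centriole duplication. Its level was 32.1, 35.3 and 27.7 CPM in the libraries with both treatments, 96.7, 111.6 and 86.1 CPM with TGF-β1, 39.0, 42.8 and 33.3 CPM with dexamethasone, and 280.8, 304.4 and 248.8 CPM in control. All 3 treated groups lay below every control library, and the TGF-β1 libraries lay between control and the 6 libraries with dexamethasone. Both groups with dexamethasone overlapped each other.

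The log2 fold change of PLK2 with dexamethasone was -1.64 (SE 0.13) in TGF-β1-treated cells and -2.87 (SE 0.13) against control. With TGF-β1 it was -0.28 (SE 0.13) in dexamethasone-treated cells and -1.51 (SE 0.12) against control. Scaling by total counts alone, without TMM, brought the value in dexamethasone-treated cells to -0.48 (SE 0.14). Group means were 31.7 ± 3.84 CPM with both treatments, 98.2 ± 12.8 CPM with TGF-β1, 38.4 ± 4.82 CPM with dexamethasone and 278 ± 27.9 CPM in control (SD, n = 3 each). The dexamethasone effects, in cells with TGF-β1 minus cells without, differed by 1.23 on the log2 scale (SE 0.18). Paired by replicate number, the log2 ratios of PLK2 with both treatments against dexamethasone were -0.28, -0.28 and -0.27, and the ranges of the groups overlapped. PLK2 was picked for its response, so these ratios are a description and nothing is read from their shared sign. Replicate 2 was the highest and replicate 3 the lowest library of all 4 groups.

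PLK3 (chr1:44800377-44805990, Entrez 1263), a polo-like kinase induced by stress and mitogens, was higher with TGF-β1 than in control, where PLK2 was lower, and lower with dexamethasone, as PLK2 was. Its level was 16.0, 11.3 and 17.9 CPM with both treatments, 30.5, 19.8 and 24.6 CPM with TGF-β1, 8.28, 5.95 and 6.46 CPM with dexamethasone, and 16.4, 14.4 and 14.6 CPM in control. The 3 dexamethasone libraries were the lowest and the 3 TGF-β1 libraries the highest, while the libraries with both treatments lay around control and overlapped it.

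On the log2 scale PLK3 rose by 0.72 with TGF-β1 against control (SE 0.18, adjusted p = 0.00717) and fell by 1.14 with dexamethasone (SE 0.20, adjusted p = 0.00133). With dexamethasone present in both groups, TGF-β1 raised it by 1.17 (SE 0.20, adjusted p = 0.00048). With both treatments it averaged 15.1 ± 3.39 CPM and in control 15.1 ± 1.08 CPM (SD, n = 3 each), a log2 difference of 0.03 (SE 0.19, adjusted p = 0.928). The fall with dexamethasone in TGF-β1-treated cells (-0.70, SE 0.18, adjusted p = 0.0285) was near the threshold. It had an adjusted p of 0.0802 with only those groups in the fit and of 0.0668 to 0.137 when any of 4 libraries was left out: TGF-β1 replicate 1 or 3, or replicate 1 or 2 of both treatments. The dexamethasone effect did not differ past the threshold between cells with and without TGF-β1 (0.45, SE 0.27, adjusted p = 0.952).

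Among the other polo-like kinases, PLK1, a driver of mitosis, and PLK4, the master kinase of centriole duplication, passed the filter and PLK5 did not. PLK1 fell with TGF-β1 against control (-0.33, SE 0.08, adjusted p = 0.0082) and with both treatments against dexamethasone (-0.35, SE 0.08, adjusted p = 0.00509). With dexamethasone against control the log2 fold change of PLK1 was 0.05 (SE 0.08, adjusted p = 0.864) and that of PLK4 was 0.00 (SE 0.12, adjusted p = 0.994). PLK4 fell with both treatments against control (-0.32, SE 0.12, adjusted p = 0.0478). With the replicate number as a block, which takes out deviations that libraries of the same number shared, 2 of 2 kinases fell with TGF-β1 against control, where 50% of all genes were called in that fit (32.8% without the block).

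GADD45A (chr1:67685201-67688334, Entrez 1647) is the GADD45 family member best known as a p53 target. It measured 110.0, 107.9 and 96.9 CPM with both treatments, 35.2, 30.2 and 35.4 CPM with TGF-β1, 49.4, 53.3 and 46.7 CPM with dexamethasone, and 31.2, 32.1 and 30.9 CPM in control. Every library with both treatments lay above every other library, the dexamethasone libraries came next, and the TGF-β1 and control libraries overlapped.

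Group means of GADD45A were 104.9 ± 7.05 CPM with both treatments, 33.6 ± 2.98 CPM with TGF-β1, 49.8 ± 3.28 CPM with dexamethasone and 31.4 ± 0.65 CPM in control (SD, n = 3 each). The log2 fold change with dexamethasone was 1.64 (SE 0.09) in TGF-β1-treated cells and 0.66 (SE 0.09) without TGF-β1, a difference of 0.97 (SE 0.13). TGF-β1 against control gave 0.10 (SE 0.09), which turned to -0.11 when libraries were scaled by their total counts alone, and both treatments against dexamethasone gave 1.08 (SE 0.09). With that scaling the median log2 fold change of all genes was -0.22 in TGF-β1 against control (-0.01 with TMM) and -0.23 in both treatments against dexamethasone (-0.02 with TMM), so all directions here are relative to the median gene.

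GADD45B (chr19:2476127-2478257, Entrez 4616), known as an early target of TGF-β signalling upstream of the p38 kinases, had the highest level per length of the 9 genes in the 3 treated groups. It measured 397.5, 337.3 and 328.9 CPM with both treatments, 265.5, 220.0 and 235.6 CPM with TGF-β1, 188.2, 187.6 and 167.8 CPM with dexamethasone, and 91.1, 78.5 and 81.4 CPM in control. The 4 groups did not overlap, in the order both treatments, TGF-β1, dexamethasone and control. Per kilobase of exon, the mean level was 227.6 CPM with both treatments and 53.7 CPM in control, where PLK2 was at 93.9 CPM per kilobase.

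On the log2 scale GADD45B rose by 1.52 with TGF-β1 (SE 0.10, adjusted p = 8.88e-08) and by 1.11 with dexamethasone (SE 0.10, adjusted p = 2.9e-06). Dexamethasone added 0.56 in TGF-β1-treated cells (SE 0.10, adjusted p = 0.00156), and TGF-β1 added 0.97 in dexamethasone-treated cells (SE 0.10, adjusted p = 4.8e-06). Both treatments against control came to 2.08 (SE 0.10, adjusted p = 4.68e-09), and TGF-β1 against dexamethasone to 0.41 (SE 0.10, adjusted p = 0.00424). The difference between the dexamethasone effects, in cells with TGF-β1 minus cells without, was -0.55 (SE 0.14, adjusted p = 0.102), which was not past the threshold of 0.05. It was past it with the replicate number as a block (-0.55, adjusted p = 0.000104), in DESeq2 (adjusted p = 0.0499), without a count filter (adjusted p = 0.0494) and with scaling by total counts alone (adjusted p = 0.0485).

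GADD45G (chr9:89605012-89606555, Entrez 10912), the third member of the family, had few reads. Its counts were 2, 2 and 10 with both treatments, 1, 3 and 10 with TGF-β1, 2, 2 and 10 with dexamethasone, and 3, 0 and 5 in control. The 50 reads over 12 libraries correspond to at most 0.61 CPM in any of them, and the 0 in control replicate 2 allows up to 0.466 CPM, from 3 counts. GADD45G was not tested between groups, and the highest count of each group lies in replicate 3, the deepest library. Such a limit covers the error of counting alone, as duplicate reads of a molecule were not told apart.

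GADD45 proteins act through partners, of which a list of 16 was tested. With TGF-β1 against control 4 rose and 4 fell, where 32.8% of all genes were called, and with dexamethasone against control 2 rose and 4 fell, where 10.4% were. With the block these counts were 4 and 6 (50% of all genes), and 2 and 6 (22.2%). MAP3K4, the kinase that GADD45 proteins bind and activate, rose with TGF-β1 (1.33, SE 0.08, adjusted p = 3.88e-08), with means of 108.2 ± 4.03 CPM with TGF-β1 and 43.3 ± 1.58 CPM in control (SD, n = 3 each). MAP3K4 fell with dexamethasone in TGF-β1-treated cells (-0.52, SE 0.08, adjusted p = 0.000498), where GADD45B rose. The kinases MAP2K3 and MAP2K6, which activate p38, fell with dexamethasone against control by 1.38 (SE 0.19, adjusted p = 0.000264) and by 1.54 (SE 0.30, adjusted p = 0.00311) on the log2 scale. MAP2K6 was low, at 1.11 ± 0.071 CPM with dexamethasone and 3.34 ± 0.539 CPM in control (SD, n = 3 each). The 2 partners that rose with dexamethasone against control were MAP3K5 (0.89, SE 0.22, adjusted p = 0.0159) and MAPKAPK2 (0.61, SE 0.09, adjusted p = 0.000401). CDK1, the mitotic kinase that GADD45A binds, fell with TGF-β1 (-0.54, SE 0.08, adjusted p = 0.000185) and with dexamethasone (-0.33, SE 0.08, adjusted p = 0.0175).

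SESN1 (chr6:108984309-109094846, Entrez 27244) encodes sestrin 1, a p53 target that restrains growth signalling through the mTORC1 kinase complex. It measured 13.8, 17.2 and 13.6 CPM with both treatments, 12.6, 14.8 and 12.2 CPM with TGF-β1, 35.3, 41.9 and 35.4 CPM with dexamethasone, and 12.1, 12.3 and 14.2 CPM in control. The 3 dexamethasone libraries stood above all others, and the other 9 libraries overlapped between groups.

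In TGF-β1-treated cells the log2 fold change of SESN1 with dexamethasone was 0.17 (SE 0.14, adjusted p = 0.677), with means of 14.9 ± 2.06 CPM with both treatments and 13.2 ± 1.43 CPM with TGF-β1 (SD, n = 3 each). In cells without TGF-β1, SESN1 rose by 1.52 with dexamethasone (SE 0.13, adjusted p = 1.97e-06), with means of 37.6 ± 3.79 CPM with dexamethasone and 12.9 ± 1.16 CPM in control. The difference between these effects was -1.36 (SE 0.19, adjusted p = 0.00344), and its adjusted p ran from 0.00296 to 0.0165 when each of the 12 libraries was left out in turn. TGF-β1 alone gave 0.01 (SE 0.14, adjusted p = 0.969), while both treatments against dexamethasone gave -1.35 (SE 0.13, adjusted p = 3.47e-06). With both treatments against control SESN1 had 0.18 (SE 0.14, adjusted p = 0.351), so the libraries with both treatments did not differ from control past the threshold.

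Of the 6 tested genes, SESN1 was the 1 gene in which the dexamethasone effect differed past the threshold between cells with and without TGF-β1. Across all 13469 genes, 0.884% passed that test, 0.483% with a positive difference and 0.401% with a negative one, as for SESN1. With the replicate number as a block 2 of the 6 genes passed, SESN1 and GADD45B, and 4.78% of all genes did. The median of the difference over the 6 genes was -0.17, against -0.01 over all genes tested.

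**Figure D2:**
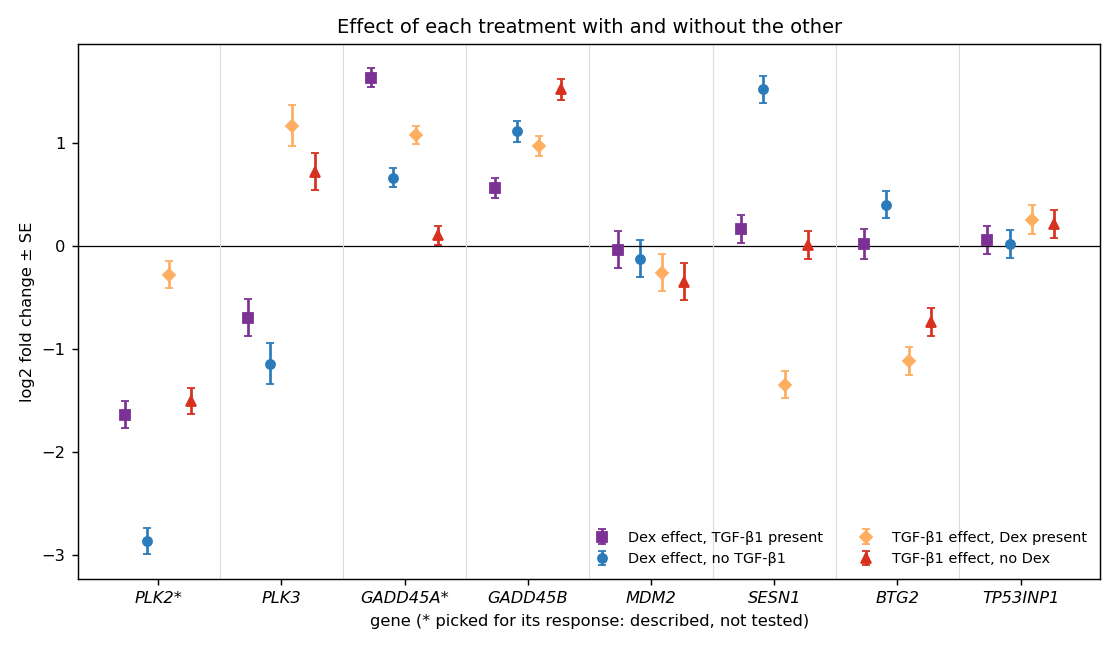
Log2 fold change (vertical axis) ± SE of dexamethasone (squares with TGF-β1 present, circles without) and of TGF-β1 (diamonds with dexamethasone present, triangles without) for the 8 genes that passed the count filter. SESN1 has a dexamethasone effect of 0.17 with TGF-β1 present and 1.52 without it, whereas for GADD45A the effect is 1.64 with it and 0.66 without.

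BTG2 (chr1:203305519-203309602, Entrez 7832), an antiproliferative p53 target that promotes the shortening of mRNA tails, was lower in all 6 libraries with TGF-β1 than in all 6 without. It measured 8.91, 8.88 and 8.46 CPM with both treatments, 8.06, 7.27 and 9.81 CPM with TGF-β1, 17.7, 19.6 and 19.2 CPM with dexamethasone, and 16.1, 13.5 and 13.6 CPM in control. The groups with both treatments and with TGF-β1 overlapped, whereas dexamethasone and control did not.

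BTG2 fell with TGF-β1 against control by 0.74 on the log2 scale (SE 0.14, adjusted p = 0.001) and with both treatments against dexamethasone by 1.11 (SE 0.14, adjusted p = 3.02e-05). The log2 fold change of dexamethasone against control was 0.40 (SE 0.13, adjusted p = 0.0704) and passed the threshold with the replicate number as a block (0.41, adjusted p = 0.0127). In TGF-β1-treated cells dexamethasone gave 0.02 (SE 0.15, adjusted p = 0.978). The difference between the dexamethasone effects, -0.38 (SE 0.20, adjusted p = 0.827), was not past the threshold.

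Relatives of these genes were mixed. The gene lists used here share genes: SESN2 is also counted among the p53 targets and the ATF4-linked stress genes below, and MDM4 among the p53 regulators. Of 8 relatives that passed the filter, 2 rose and 3 fell with TGF-β1 against control (32.8% of all genes called), and 3 rose and 1 fell with dexamethasone against control (10.4% called). With the block 2 rose and 5 fell with TGF-β1 (50% called), and 3 rose and 3 fell with dexamethasone (22.2% called). SESN2, the stress-induced sestrin, rose with TGF-β1 by 1.02 (SE 0.12, adjusted p = 2.38e-05), where SESN1 gave 0.01. TOB1, an antiproliferative relative of BTG2, fell with TGF-β1 by 1.69 on the log2 scale (SE 0.21, adjusted p = 7.41e-05). TOB2 rose with dexamethasone against control (0.56, SE 0.12, adjusted p = 0.00582) and also in TGF-β1-treated cells (0.46, SE 0.12, adjusted p = 0.0284).

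MDM2 (chr12:68808172-68850686, Entrez 4193) encodes the ubiquitin ligase that marks p53 for destruction and is itself a p53 target. It measured 55.4, 66.3 and 87.7 CPM with both treatments, 58.9, 66.2 and 89.2 CPM with TGF-β1, 71.3, 88.7 and 92.2 CPM with dexamethasone, and 85.2, 88.3 and 100.8 CPM in control. All groups overlapped, and replicate 3, the most deeply sequenced library, was the highest of each group.

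With TMM scaling, no block and all libraries, the adjusted p of MDM2 was at least 0.118 in the 7 comparisons. Its log2 fold change was -0.35 for TGF-β1 against control (SE 0.18, adjusted p = 0.163) and -0.38 for both treatments against control (SE 0.18, adjusted p = 0.118). Paired by replicate number, the TGF-β1 libraries were lower than control in 3 of 3 pairs (log2 ratios of -0.53, -0.42 and -0.18). With the block the same changes had adjusted p = 0.000983 and adjusted p = 0.000398, and both treatments against dexamethasone had -0.26 (adjusted p = 0.0107). TGF-β1 against dexamethasone had -0.22 with the block (adjusted p = 0.0216). MDM2 also passed in TGF-β1 against control without TGF-β1 replicate 3 (-0.55, adjusted p = 0.0332), and in both treatments against control without replicate 3 of both treatments (-0.59, adjusted p = 0.0201). With scaling by total counts alone it passed in TGF-β1 against control (-0.55, adjusted p = 0.0291) and in both treatments against control (-0.64, adjusted p = 0.0124).

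TP53INP1 (chr8:94925972-94949378, Entrez 94241), a p53 target that promotes cell death and autophagy, differed little in mean level between groups. It measured 47.2, 46.8 and 54.2 CPM with both treatments, 41.2, 43.3 and 56.7 CPM with TGF-β1, 39.6, 40.3 and 44.2 CPM with dexamethasone, and 40.3, 34.1 and 47.4 CPM in control. Only the groups with both treatments and with dexamethasone did not overlap, and replicate 3 was again the highest of each group.

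The log2 fold change of TP53INP1 was 0.21 for TGF-β1 against control (SE 0.14, adjusted p = 0.26) and 0.26 for both treatments against dexamethasone (SE 0.14, adjusted p = 0.176). With the block these had adjusted p = 0.0267 and adjusted p = 0.00951, both treatments against control had 0.27 (adjusted p = 0.00683), and TGF-β1 against dexamethasone had 0.21 (adjusted p = 0.0311). Dexamethasone against control gave 0.02 (adjusted p = 0.981). Both treatments against control also passed without control replicate 3 (0.41, adjusted p = 0.0474). Scaling by total counts alone brought the TGF-β1 effect to 0.01, so the sign of a difference this small is relative to the median gene.

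**Figure D3:**
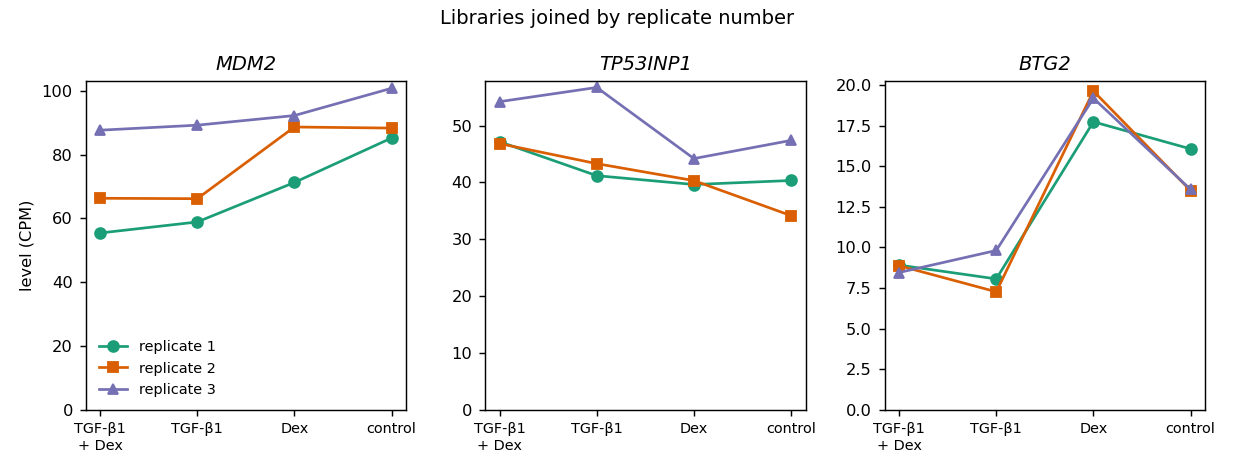
Level in CPM (vertical axis, from 0) of MDM2, TP53INP1 and BTG2 in the 4 groups, with a line for each replicate number. Replicate 3 lies above the others in all groups for MDM2 and TP53INP1, and all 3 MDM2 lines are lower with TGF-β1 than in control.

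Counted per comparison, the 6 tested genes moved in both directions. With TGF-β1 against control GADD45B and PLK3 were higher and BTG2 was lower, where 16.2% of all genes were called higher and 16.6% lower (32.8% in all). The block added TP53INP1 as higher and MDM2 as lower, with 50% of all genes called. Scaling by total counts alone called 1251 of all genes higher and 4332 lower, against 2186 higher and 2230 lower with TMM. The median log2 fold change of the 6 was 0.11, against -0.01 over all genes.

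With dexamethasone against control GADD45B and SESN1 were higher and PLK3 was lower, where 5.54% of all genes were called higher and 4.9% lower (10.4% in all). In TGF-β1-treated cells dexamethasone raised GADD45B and lowered PLK3, where 5.09% were called higher and 3.01% lower (8.11% in all). The dexamethasone effect on PLK3 was -0.70 with TGF-β1 and -1.14 without, and that on SESN1 was 0.17 with it and 1.52 without. With the block BTG2 was also called higher in dexamethasone against control, where 22.2% of all genes were called. In TGF-β1-treated cells the block called the same 2 of 6, where 17.5% of all genes were called.

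With both treatments against dexamethasone GADD45B and PLK3 were higher and BTG2 and SESN1 lower, where 15.9% of all genes were called higher and 16.4% lower (32.3% in all). The block called all 6, 3 in each direction, with 49.9% of all genes called. With both treatments against control GADD45B was higher and BTG2 lower, where 18.5% of all genes were called higher and 18.1% lower (36.6% in all), and the block called 4 of 6 where it called 53.1% of all genes. TGF-β1 against dexamethasone gave GADD45B and PLK3 as higher and BTG2 and SESN1 as lower, where 18.3% of all genes were called higher and 19.5% lower (37.8% in all). With the block all 6 were called there too, where 54.6% of all genes were called. Scaling by total counts alone called 1325 of all genes higher and 4472 lower in both treatments against dexamethasone (2145 and 2207 with TMM), and 1416 higher and 5342 lower in both treatments against control (2491 and 2434 with TMM). In TGF-β1 against dexamethasone it called 1678 higher and 4010 lower (2466 and 2632 with TMM).

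Groups that did not overlap in any library were counted over the 8 genes that passed the filter, PLK2 and GADD45A included. With dexamethasone against control BTG2, GADD45A, GADD45B and SESN1 lay above and PLK2 and PLK3 below, where 25.7% of all genes did not overlap. With both treatments against TGF-β1 GADD45A and GADD45B lay above and PLK2 and PLK3 below, where 20.9% of all genes did not overlap. With TGF-β1 against control GADD45B and PLK3 lay above and BTG2 and PLK2 below, against 44.8% of all genes. PLK2 and GADD45A are in these counts because of the way they were picked, and nothing is read from them.

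Genes whose log2 level was most like that of a member over the 12 libraries were ranked by Pearson's r among 12435 genes, as a description of libraries that share groups and replicate numbers. PLK2 was most like BCAR1 (r = 0.978) and TGFB3 (r = 0.974). PLK3 was most like PTPRE (r = 0.986), GADD45A like SHROOM2 (r = 0.986) and GADD45B like ITGA5 (r = 0.978). SESN1 was most like MAOA (r = 0.969), BTG2 like TM7SF3 (r = 0.98) and MDM2 like CD46 (r = 0.97). TP53INP1 had r = 0.906 with SLC39A10. Between members, r was -0.90 for PLK3 with SESN1, -0.82 for PLK2 with GADD45B, 0.74 for GADD45A with GADD45B and 0.69 for SESN1 with BTG2.

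CDKN1A, the p53 target that encodes the cell cycle inhibitor p21, averaged 269 ± 29.2 CPM with both treatments, 245.6 ± 67.5 CPM with TGF-β1, 175 ± 5.21 CPM with dexamethasone and 154.8 ± 21.9 CPM in control (SD, n = 3 each). It rose with TGF-β1 against control (0.67, SE 0.18, adjusted p = 0.0112), and its range in TGF-β1, 168.4 to 293.1 CPM, overlapped that of control, 129.6 to 169.4 CPM. Dexamethasone against control gave 0.17 (SE 0.17, adjusted p = 0.71).

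A list of 28 other p53 targets, CDKN1A among them, was tested in the same fit, and all 28 passed the filter. With TGF-β1 against control 5 rose and 7 fell, where 32.8% of all genes were called, and the median was -0.001, against -0.01 over all genes. With dexamethasone against control 2 rose and 1 fell (10.4% of all genes called), and in TGF-β1-treated cells 2 rose and 26 did not pass (8.11% called). With the block 7 rose and 9 fell with TGF-β1 against control, where 50% of all genes were called. In that fit 3 rose and 5 fell with dexamethasone against control (22.2% called), and 2 rose and 3 fell with dexamethasone in TGF-β1-treated cells (17.5% called). TP53I3, an oxidoreductase gene induced by p53, rose with TGF-β1 by 1.29 on the log2 scale (SE 0.24, adjusted p = 0.00169).

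The death receptor gene FAS fell with TGF-β1 (-2.39, SE 0.31, adjusted p = 4.54e-05), and so did CMBL (-1.46, SE 0.13, adjusted p = 1.49e-06). PHLDA3, an inhibitor of AKT signalling, fell with dexamethasone against control (-1.11, SE 0.10, adjusted p = 2.07e-06), and this effect differed with TGF-β1 present (difference 1.01, SE 0.14, adjusted p = 0.00327). In TGF-β1-treated cells dexamethasone gave -0.11 in PHLDA3 (SE 0.09, adjusted p = 0.694), so its effect did not pass there, as for SESN1. PHLDA3 was the 1 gene of the 28 whose dexamethasone effects differed past the threshold. The difference was positive for PHLDA3, which dexamethasone alone lowered, and negative for SESN1, which dexamethasone alone raised. With the block 2 of the 28 were higher and 1 lower in that test, where 4.78% of all genes were called, against 0.884% without it.

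**Figure D4:**
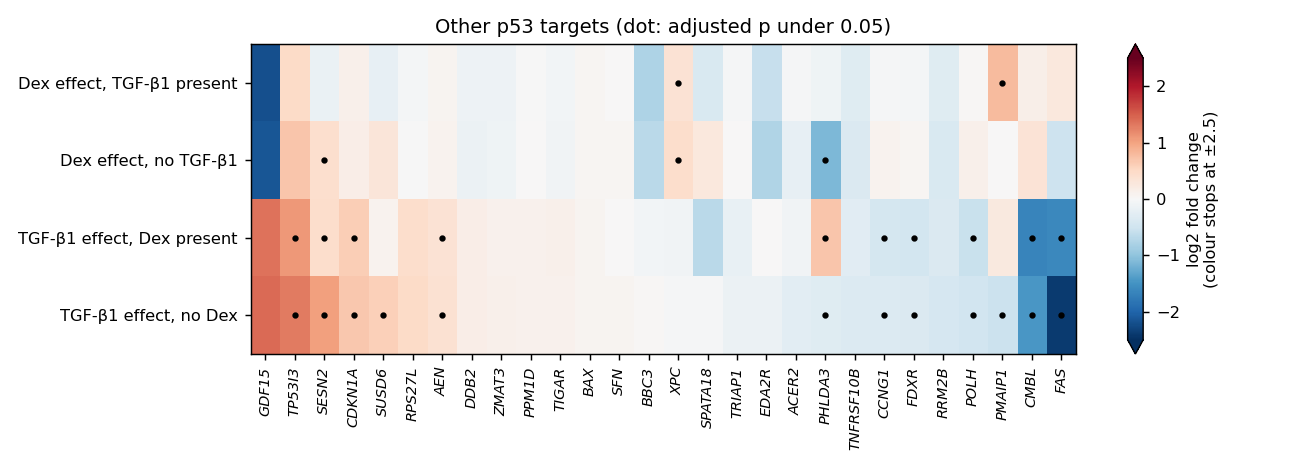
Log2 fold change (colour, stopping at the ends of the bar) of the 28 other p53 targets (columns, ordered by the TGF-β1 effect) for dexamethasone with and without TGF-β1 and for TGF-β1 with and without dexamethasone (lines of the map), with a dot where the adjusted p was under 0.05. FAS stands at the low end of the order with -2.39, and most targets have no dot for a given effect.

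Regulators of p53 were tested as a list of 15. With TGF-β1 against control CDKN2A, whose products include an inhibitor of MDM2, rose (0.76, SE 0.09, adjusted p = 2.45e-05), TP73, CHEK2 and MDM4 fell, and 11 did not pass, where 32.8% of all genes were called. With the block 5 rose and 6 fell, where 50% were called. MDM4, the partner of MDM2, fell by 0.65 on the log2 scale (SE 0.18, adjusted p = 0.0122), beside -0.35 for MDM2. With dexamethasone HIPK2, a kinase that phosphorylates p53, rose by 1.47 (SE 0.12, adjusted p = 1.36e-06) with TGF-β1 and by 1.69 (SE 0.12, adjusted p = 2.84e-07) without it. TP73, a relative of p53, gave a difference between the dexamethasone effects of 1.23 (SE 0.21, adjusted p = 0.0131).

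Other stress genes, 10 named GADD or linked to the transcription factor ATF4, were split with TGF-β1 against control into 5 that rose and 5 that did not pass, where 16.2% of all genes were called higher. Their median log2 fold change was 0.43, against -0.01 over all genes. CHAC1, a glutathione-degrading enzyme, rose with TGF-β1 by 2.45 (SE 0.24, adjusted p = 3.03e-06) and with dexamethasone by 1.61 (SE 0.25, adjusted p = 0.000462). The dexamethasone effect on CHAC1 was lower in the presence of TGF-β1 (difference -1.59, SE 0.32, adjusted p = 0.0327), as for SESN1, but the levels differed. With both treatments against control CHAC1 was higher by 2.46 (SE 0.24, adjusted p = 2.44e-06), where SESN1 had 0.18 (adjusted p = 0.351). CHAC1 was low in control, at 1.63 ± 0.47 CPM (SD, n = 3).

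Some members overlap other genes in the annotation, and the library kit does not mark strand, so reads in the overlaps cannot be assigned by strand. DYNLT4 overlaps PLK3 and had 224 reads in the 12 libraries, against 1933 for PLK3. ARMC2 overlaps SESN1 (343 reads, against 2506 for SESN1), NDUFAF6 overlaps TP53INP1 (1297 against 5906), and the gene of carboxypeptidase M overlaps MDM2 (380 against 10742). Counts per gene do not separate isoforms, such as the transcripts that start at the different SESN1 and MDM2 windows.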

How the data were processed

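RNA from 12 libraries of BEAS-2B cells, 3 per group, was sequenced, and the authors deposited a table of unnormalised counts of reads for each gene. Per the labels' protocols, polyadenylated RNA was isolated from total RNA and libraries were made with a kit that does not mark strand. Per the submitters' processing notes, featureCounts and the build hg38 were used. Aligner, annotation, featureCounts version and strand setting were not given in the sources used here. Of 18 count columns, 6 have no label and were not used. Of 28395 Entrez identifiers, 27745 matched the RefSeq gene table of GRCh38.p14 and hold 99.943% of counts. The other 650 were kept under their identifiers, and 3893 identifiers had no count in the 12 libraries.

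The filterByExpr filter (minimum count 10) kept 13469 genes. One model with a mean per group was fitted to the 12 libraries, with TMM normalisation and edgeR's robust quasi-likelihood test. Versions were R 4.3.3, edgeR 4.0.16 and limma 3.58.1. P-values were adjusted by Benjamini-Hochberg over all genes tested, with a threshold of 0.05, and the SE was taken from the log2 fold change and its F statistic. The steps were tested on simulated counts for TGF-β1 and for dexamethasone against control, without deviations shared by replicate number. The difference between dexamethasone effects was not simulated. Levels in CPM used library sizes scaled by TMM. Per-length levels used union exon lengths of GENCODE. Motifs and tables were computed in Python 3.11.15 with pandas 2.3.3, and figures with matplotlib 3.10.9.

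The 7 comparisons were the 6 pairs of groups and the interaction, which subtracts the dexamethasone effect in cells without TGF-β1 from that in cells with it. Libraries of the same replicate number, which the labels give, deviated together: residuals after removal of the group mean correlated at 0.25 to 0.541 in 18 of 18 same-number pairs and at -0.422 to 0.042 in 36 pairs of different numbers. A fit with the number as a block lowered the common biological coefficient of variation to 0.0577, against 0.122 without it. Alternatives were the block, DESeq2 (version 1.42.0) as a test and for size factors, library size alone, no count filter, a non-robust dispersion, only the compared groups in the fit, and each library left out.

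The members and the gene lists were chosen with earlier results of these data known. Named genes were the 9 members, CDKN1A, up to 3 genes per list and direction with the largest change past the threshold in a comparison, and the 3 genes most like each member, of which some are printed. Some genes that the rule names are not reported here. No set test was run.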

Additional observations from a re-analysis of the deposited data

Results flagged for a closer look

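The dexamethasone effect on SESN1 differed between cells with and without TGF-β1 by -1.36 on the log2 scale (SE 0.19, adjusted p = 0.00344 in edgeR's test of the difference). With TGF-β1 the libraries with dexamethasone held 13.8, 17.2 and 13.6 CPM and those without it 12.6, 14.8 and 12.2 CPM. In cells that had no TGF-β1, the libraries with dexamethasone held 35.3, 41.9 and 35.4 CPM and those without it 12.1, 12.3 and 14.2 CPM. With the replicate number as a block the difference was -1.32 (adjusted p = 1.13e-05). Its cause was not tested.
Without the block, the dexamethasone effect also differed with and without TGF-β1 in 3 genes of the lists: by 1.01 in PHLDA3 (SE 0.14, adjusted p = 0.00327), by 1.23 in TP73 (SE 0.21, adjusted p = 0.0131) and by -1.59 in CHAC1 (SE 0.32, adjusted p = 0.0327). They were 1 of 28 p53 targets, 1 of 15 p53 regulators and 1 of 10 other stress genes, where 0.884% of all genes passed. With the block 4.78% of all genes passed. Positive differences were then found in 2 p53 targets, 1 p53 regulator, 1 relative and 1 GADD45 partner. Negative ones were found in 1 p53 target, 2 relatives, 1 GADD45 partner and 3 other stress genes, in lists that share genes. TP73 averaged 18.4 ± 1.48 CPM with both treatments, 6.71 ± 1.41 CPM with TGF-β1, 15.6 ± 1.84 CPM with dexamethasone and 13.6 ± 0.591 CPM in control (SD, n = 3 each).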

How the results depend on the processing

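Results were recomputed under library size alone, DESeq2 size factors, the DESeq2 test, no count filter, a non-robust dispersion, only the compared groups in the fit, the replicate block, and without each of the 12 libraries. For the tested members, 769 of 792 such values kept their side of the threshold. Direction was compared only where a gene passed in either fit, and no such value reversed. Small effects that passed in neither fit could change sign. SESN1 in TGF-β1 against control, for example, ran from -0.08 to 0.10 when each library was left out. For PLK2 and GADD45A 257 of 264 values stayed within the spread of the replicates. The 7 that did not all came from library size alone. The tested members called in TGF-β1 against control numbered 5 with the replicate block, against 3 without it, and in both treatments against control 4, against 2. In both treatments against TGF-β1 the count was 1 with only the compared groups in the fit, against 2, and 1 to 2 when each library was left out. For the interaction the count was 2 with the block, library size alone, the DESeq2 test or no filter, against 1, and no value could be had with only 2 groups in the fit. The changes of call under the block are given with MDM2, TP53INP1, BTG2 and GADD45B, and the block changed no other call of a tested member. The causes of these changes were not tested. Depth limits GADD45G, with 50 reads in all, and the 8 residual degrees of freedom limit the smaller effects.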
